A study of Rattus norvegicus with 12 samples.

Results

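The genes described here are 10 defence genes against oxidants and against ferroptosis, measured in rat heart after sorafenib or water: Slc7a11, Gclc, Gclm, Gpx4, Gpx3, Txnrd1, Srxn1, Nqo1, Hmox1 and Sod2. They were taken by symbol from the 34322 genes of the count tables, and all 10 were found. Sorafenib inhibits RAF and several receptor tyrosine kinases and is used against liver, kidney and thyroid cancer. The hearts came from male wild-type SD rats that weighed 180 to 200 g at the start. Every day they received either sorafenib by gavage at 50 mg/kg or an equal volume of deionized water, until collection at 14 or 28 days. This gave 4 groups of 3 libraries each: water at day 14 (replicates 2, 3 and 7), sorafenib at day 14 (replicates 5, 6 and 7), and water and sorafenib at day 28 (replicates 2, 3 and 4 in each). The labels give a starting weight and no age, and they leave unsaid whether a library stands for a rat of its own. The p-values therefore speak of the spread among these 12 libraries.

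Ferroptosis is a form of cell death driven by iron and by peroxidized membrane lipids. Cells hold it off by importing cystine through the antiporter xCT (Slc7a11 with Slc3a2), making glutathione from its cysteine, and letting the selenoenzyme Gpx4 use that glutathione to reduce lipid peroxides. Many enzymes of this system, of the thioredoxin system and of haem breakdown are induced by NRF2 (gene Nfe2l2), a transcription factor that binds the antioxidant response element and is held down by Keap1. Sorafenib has been reported to block cystine uptake by xCT in cultured cells. Heart muscle makes much superoxide in its mitochondria, where Sod2 converts it to hydrogen peroxide.

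Libraries held 13746366 to 18534816 counts at day 14, and 16785038 to 26403196 in 5 of the 6 libraries of day 28. Sorafenib day 28 replicate 3 held only 1036483, so that 1 count equals 0.836 CPM there (counts scaled to a common library size after TMM normalization), and 16908 genes had a count against 21899 to 22748 elsewhere. The ribosomal RNA precursor Rn45s took 1.64% of the counts in that library, 1.25% in sorafenib day 28 replicate 2 and 0.842% in sorafenib day 14 replicate 5, against 0.0977% to 0.537% in the other 9. Summed levels of 8 cardiomyocyte markers were 33492 to 80387 CPM in all libraries, and none of the 8 was at 0 in any group. Sorafenib day 14 replicate 5 had 33492 CPM, against 52920 and 52405 in its group. Sorafenib day 28 replicate 3 had 40815, against 60998 and 70301. Among water libraries, day 14 replicate 2 was lowest at 40279. Both named sorafenib libraries also had the highest fibroblast and macrophage marker sums of their groups.

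Promoter sequences of the genes are shown first because NRF2 and the related AP-1 factors act through short motifs near the start of many of them. RefSeq promoters of the rat assembly GRCr8 were matched for 9 of the 10 genes, all but Hmox1. The 250 bases before each start were searched on both strands for TGACNNNGC, the core of the antioxidant response element, and for TGAGTCA, the AP-1 site. The motifs can overlap, since an AP-1 site read on the opposite strand and followed by GC also matches the antioxidant core. Of 33469 RefSeq promoters of this length, 10.1% hold the antioxidant core and 4.05% the AP-1 site. Among the 9 genes the antioxidant core was found before Gclm, Sod2 and the second annotated start of Txnrd1, each time on the strand opposite to the gene. The AP-1 site was found before Srxn1 only. No match was found in this window before Slc7a11, Gclc, Gpx4, Gpx3 or Nqo1, which says only that these letters are not in it. The 3 matches to the antioxidant core are printed with 15 bases on each side, 5′ to 3′ along the gene, with the match in capitals.
Gclm, chr2:213031948-213031986, plus strand: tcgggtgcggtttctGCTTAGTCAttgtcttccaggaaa
Sod2, chr1:50050180-50050218, minus strand: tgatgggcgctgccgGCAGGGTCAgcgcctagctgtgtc
Txnrd1, chr7:22755959-22755997, minus strand: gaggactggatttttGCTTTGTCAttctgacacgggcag
The window of Srxn1 is printed whole because Srxn1 is the only gene of the 10 that passed the edgeR test in any comparison described below, with its AP-1 match in capitals.
Srxn1, chr3:161064562-161064811, plus strand: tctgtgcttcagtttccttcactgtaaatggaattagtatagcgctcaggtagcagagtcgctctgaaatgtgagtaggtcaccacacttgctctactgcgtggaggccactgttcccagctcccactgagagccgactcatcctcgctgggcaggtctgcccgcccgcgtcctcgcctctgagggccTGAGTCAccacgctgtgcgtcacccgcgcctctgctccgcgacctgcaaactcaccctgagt
These coordinates are of GRCr8. All gene positions given below are of mRatBN7.2, the assembly of the counts.

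Per kilobase of exon, the mitochondrial dismutase Sod2 stood highest of the 10 genes, at a mean of 205 CPM per kb over the 12 libraries. Both glutathione peroxidases followed, Gpx4 at 132 and Gpx3 at 113 CPM per kb. Sod2 was above Gpx4 in 11 of 12 libraries, and Gpx4 above Gpx3 in 10. Txnrd1 (23.7 CPM per kb) and Gclm (23.2) could not be ordered, since Txnrd1 was the higher in 6 libraries and Gclm in the other 6. Srxn1 (10.1), Nqo1 (9.66), Hmox1 (8.69) and Gclc (8.07 CPM per kb) lay close together, and each was above the next in only 5 to 9 libraries. Slc7a11 was far below all of them at 0.0349 CPM per kb. The other 9 genes stood above 65.7% to 98.9% of all genes tested on this scale, and Slc7a11 above 0.193%.

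**Figure D1:**
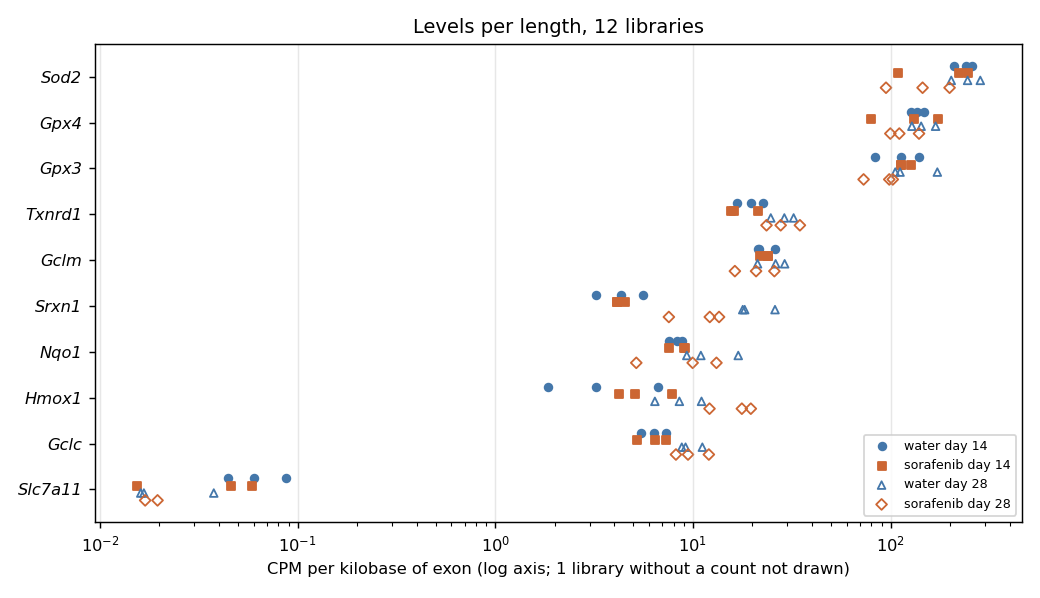
Level of each gene in CPM per kilobase of exon (log axis), 1 point per library, with symbols for the 4 groups; the library without a Slc7a11 count is not drawn. Sod2, Gpx4 and Gpx3 lie around 100 to 200 CPM per kb and Slc7a11 lies below 0.1 in all libraries.

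None of the 10 genes passed the test for sorafenib against water, at either day or over both days together. The test was edgeR's quasi-likelihood test on the counts, with Benjamini-Hochberg adjustment over all genes and a threshold of 0.05, and adjusted p-values below are from it unless DESeq2 is named. At day 14 it called 0 of 10 genes (background 0% of 17406 genes), and 0 of 10 had an unadjusted p below 0.05 (background 14%). At day 28 it called 0 of the 9 genes that passed the filter on low counts (background 0% of 17021 genes), and 3 had an unadjusted p below 0.05 (background 14.9%). For the average of both days it called 0 of 10 (background 4.41% of 18174 genes), and 3 had an unadjusted p below 0.05 (background 24.3%). Those 3 were Hmox1, which was higher with sorafenib, and Srxn1 and Sod2, which were lower, both at day 28 and in the average. DESeq2 likewise called none of them, against a background of 2.98% at day 14, 1.74% at day 28 and 10.7% over both days. Of the 10 genes, 8 were lower and 2 higher with sorafenib in the average, with a median log2 fold change of -0.16, while 9225 of all 18174 genes were lower and their median was -0.01. Since each library mixes the RNA of all cell types in the heart tissue taken, fewer cells of a type and less RNA per cell cannot be told apart in any of these values.

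**Figure D2:**
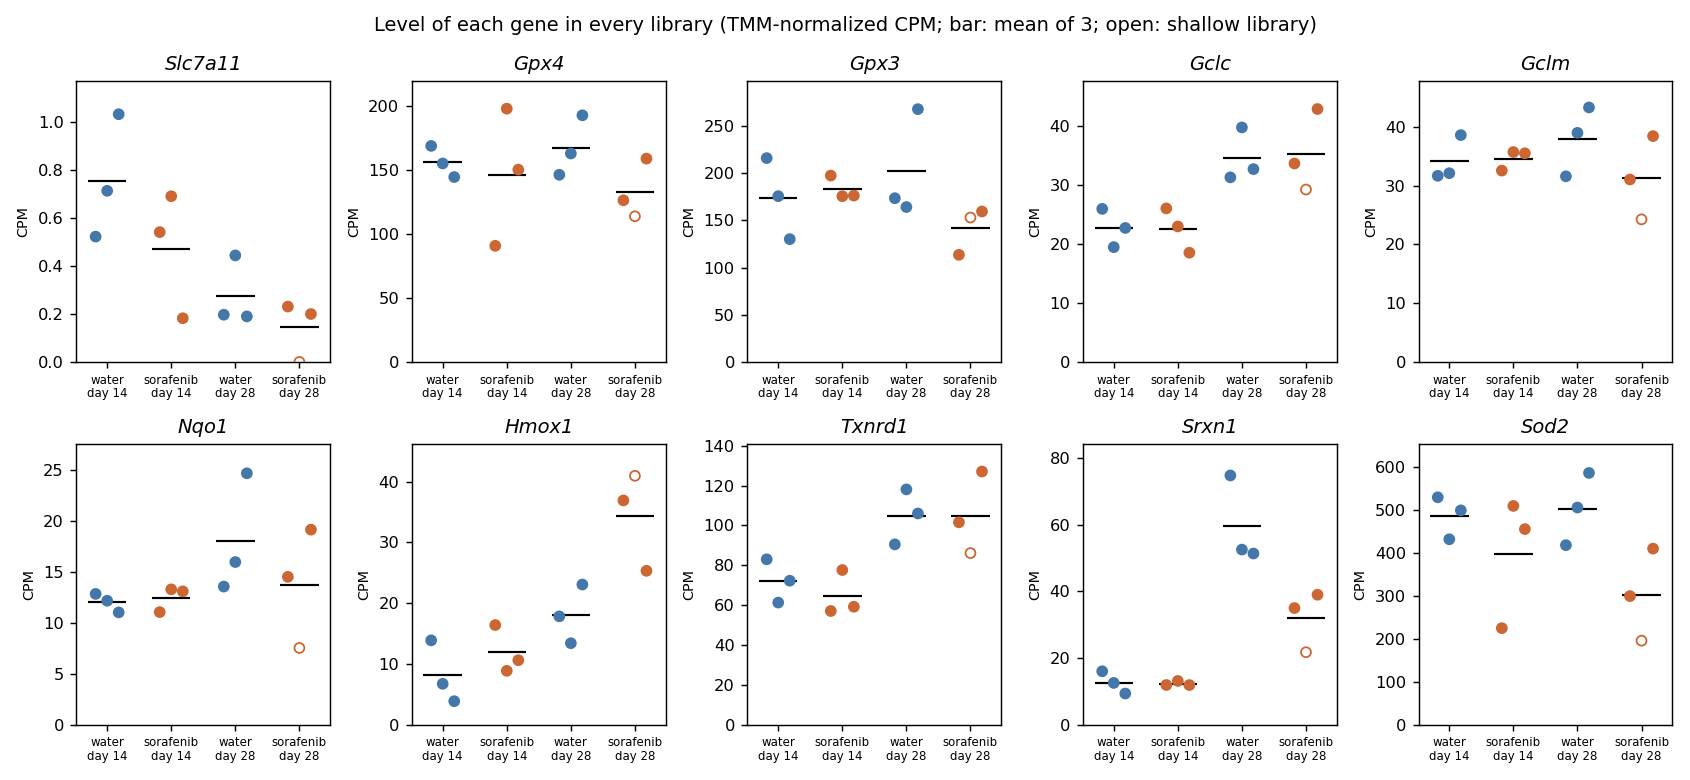
TMM-normalized level (CPM) of each gene in every library by group; points are libraries, bars are means of 3, and the open point is sorafenib day 28 replicate 3. The groups overlap at day 14 for all 10 genes, Hmox1 is highest in sorafenib at day 28, and Srxn1 is highest in water at day 28.

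Slc7a11, the cystine-importing subunit of xCT (chr2:134382002-134517622, minus strand), was barely detected. It had 10, 14 and 19 counts in the water libraries of day 14 and 9, 12 and 3 in the sorafenib libraries of that day, which is 0.522, 0.712 and 1.03 CPM against 0.540, 0.690 and 0.182 CPM. At day 28 it had 4, 9 and 4 counts with water and 4, 0 and 3 with sorafenib. The 0 stands in the shallow library, where even 3 counts would be 2.51 CPM, above every measured level of this gene. The groups overlapped at both days. The log2 fold change over both days was -0.55 ± 0.48 (SE; edgeR adjusted p = 0.499, 95% interval -1.56 to 0.47), and at day 28 the gene did not pass the filter. A change of Slc7a11 message with sorafenib was therefore not shown, and with so few counts the interval is wide.

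Gclc and Gclm encode the catalytic and the modifier subunit of glutamate-cysteine ligase, which makes the rate-limiting step of glutathione synthesis. Gclc (chr8:78629899-78668547, plus strand) read 25.98, 19.5 and 22.7 CPM under water and 26.1, 23.0 and 18.5 under sorafenib at day 14. Its day 28 levels were 31.3, 39.8 and 32.7 CPM under water and 33.7, 29.3 and 42.9 under sorafenib. The groups overlapped at each day, with the water libraries inside the range of the sorafenib libraries, and all 6 libraries of day 28 lay above all 6 of day 14. Its log2 fold change with sorafenib over both days was 0.02 ± 0.13 (SE; 95% interval -0.25 to 0.30). Gclm (chr2:210347482-210367537, plus strand) read 31.7, 32.1 and 38.6 CPM under water and 32.5, 35.7 and 35.5 under sorafenib at day 14. Its levels at day 28 were 31.6, 39.0 and 43.3 CPM under water and 31.0, 24.2 and 38.4 under sorafenib, the lowest being the shallow library. Groups overlapped again, and the log2 fold change over both days was -0.11 ± 0.12 (SE; 95% interval -0.36 to 0.15). Neither subunit passed the test (edgeR adjusted p = 0.932 for Gclc and 0.617 for Gclm).

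Gpx4 reduces lipid hydroperoxides within membranes and is the central enzyme that holds off ferroptosis (chr7:9650186-9652982, minus strand). Day 14 levels were 169, 155 and 144 CPM in water libraries and 90.7, 198 and 150.2 in sorafenib libraries. Those of day 28 were 146, 163 and 193 CPM under water and 126, 114 and 159 under sorafenib. The spread at day 14 came from the sorafenib group, which held both the lowest and the highest level of that day. Its log2 fold change was -0.09 ± 0.24 (SE) at day 14, -0.29 ± 0.17 at day 28 and -0.21 ± 0.16 over both days (edgeR adjusted p = 0.451, 95% interval -0.56 to 0.14). Without sorafenib day 14 replicate 5 the average was -0.06, and without sorafenib day 14 replicate 6 it was -0.35. The 3 lowest Gpx4 levels of the 12 were in the 3 libraries with the highest Rn45s share, which all had sorafenib. With those 3 left out together, an alternative chosen after the levels were seen that leaves 2 sorafenib libraries at day 14 and 1 at day 28, the average was 0.04. Whether anything that raised the Rn45s share, such as RNA quality or the depletion of ribosomal RNA, had a part in the lower Gpx4 levels was not tested. Of those 3 libraries, sorafenib day 14 replicate 5 and day 28 replicate 3 also had the lowest cardiomyocyte marker sums of their groups. The part of the cell mix was not tested either.

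Gpx3 encodes a secreted glutathione peroxidase (chr10:39028624-39036695, plus strand). At day 14 it read 216, 176 and 130.1 CPM under water and 197, 176 and 176 under sorafenib, so that all sorafenib values fell inside the water range. By day 28 the levels were 174, 164 and 268 CPM under water and 113, 153 and 159 under sorafenib. There every sorafenib library was below every water library, although the nearest pair differed by less than the spread within either group. The log2 fold change at day 28 was -0.47 ± 0.22 (SE; edgeR adjusted p = 0.348), and it was -0.23 without water day 28 replicate 4, the library with the highest level. Over both days it was -0.22 ± 0.16 (SE; 95% interval -0.56 to 0.12), and -0.10 without water day 14 replicate 2 or -0.09 without water day 28 replicate 4.

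Txnrd1, cytosolic thioredoxin reductase, is a selenoenzyme that keeps thioredoxin reduced with NADPH (chr7:20830042-20914990, minus strand). Its day 14 levels were 83.0, 61.3 and 72.2 CPM under water and 57.0, 77.6 and 59.2 under sorafenib. Levels at day 28 were 90.5, 118 and 106 CPM under water and 102, 86.1 and 127 under sorafenib. The groups overlapped within each day, while every library of day 28 was above every library of day 14. With sorafenib its log2 fold change was -0.07 ± 0.13 (SE; edgeR adjusted p = 0.769, 95% interval -0.34 to 0.20). Txnrd1 is the only one of the 10 genes whose exons overlap another gene, LOC108351425 on the opposite strand, and the counts were made without strand, so reads of the pair cannot be told apart.

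Srxn1, sulfiredoxin, uses ATP to repair peroxiredoxins that were inactivated by excess peroxide (chr3:140604490-140610050, plus strand). It was low at day 14, with 16.02, 12.5 and 9.34 CPM in water libraries and 11.9, 13.1 and 11.9 in sorafenib libraries. The later levels, at day 28, were 74.8, 52.6 and 51.4 CPM under water and 35.01, 21.7 and 39.0 under sorafenib. All 6 libraries of day 28 were above all 6 of day 14, and within day 28 the sorafenib libraries were all below the water libraries. Sorafenib gave a log2 fold change of -0.03 ± 0.20 (SE) at day 14 and -0.81 ± 0.23 at day 28, or 1.75-fold lower (95% interval -1.31 to -0.31). That difference had an unadjusted p of 0.0049 and did not pass after adjustment (edgeR adjusted p = 0.203, DESeq2 adjusted p = 0.0718). Without the shallow library, in which 26 counts stand behind the lowest value, it was -0.68 (edgeR adjusted p = 0.253).

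**Figure D3:**
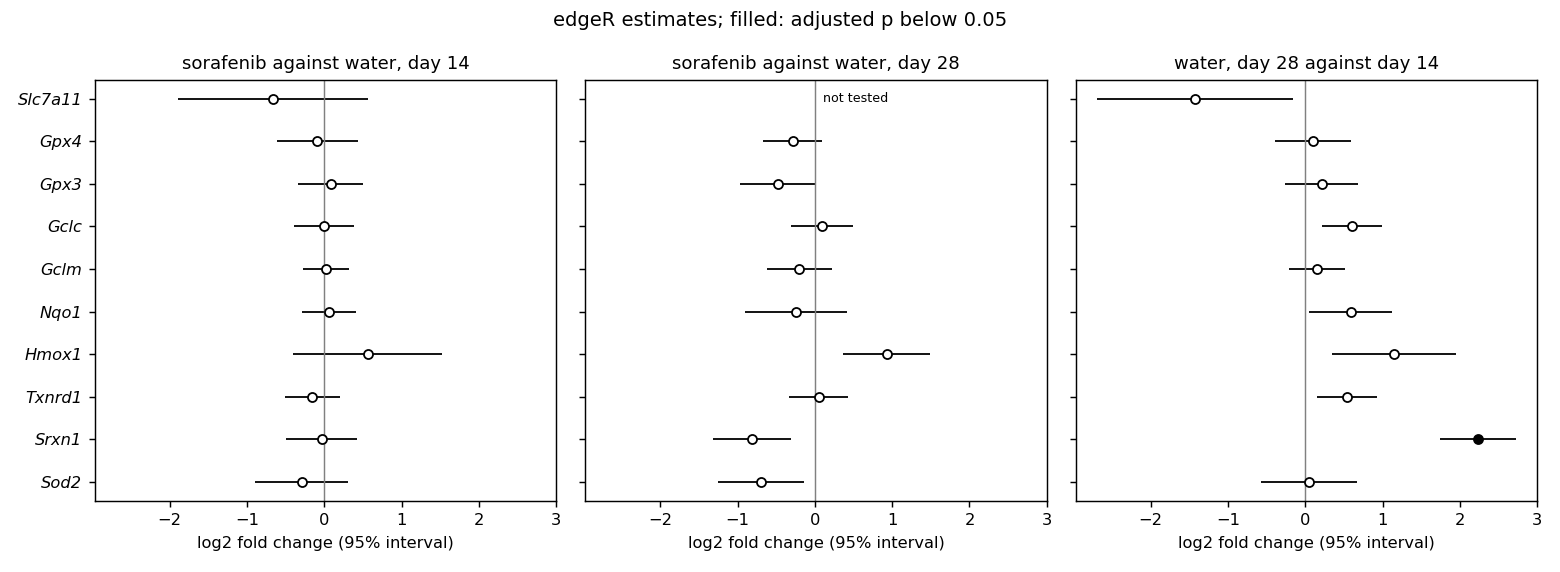
log2 fold change of each gene with its 95% interval from edgeR, for sorafenib against water at day 14 (left) and day 28 (middle) and for water at day 28 against day 14 (right); filled points have an adjusted p below 0.05. Srxn1 in the water groups, at 2.24, is the only filled point.

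Nqo1 encodes a quinone reductase that is a standard readout of NRF2 activity (chr19:35295633-35310528, minus strand). It read 12.8, 12.2 and 11.02 CPM under water and 11.05, 13.3 and 13.1 under sorafenib at day 14, and the groups overlapped. The day 28 libraries spread more widely, with 13.6, 15.96 and 24.7 CPM under water and 14.5, 7.53 and 19.1 under sorafenib, where the lowest value rests on 9 counts in the shallow library. The log2 fold change over both days was -0.11 ± 0.18 (SE; edgeR adjusted p = 0.757, 95% interval -0.49 to 0.28). It was 0.04 without water day 28 replicate 4, the library with the highest level.

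Hmox1, haem oxygenase 1, breaks haem into iron, carbon monoxide and biliverdin, and is induced by NRF2 once the repressor Bach1 leaves (chr19:13466287-13474082, plus strand). At day 14 it read 13.9, 6.72 and 3.85 CPM under water and 16.4, 8.85 and 10.6 under sorafenib. The groups overlapped there, and the water libraries alone spread more than 3-fold. Day 28 brought 17.8, 13.4 and 23.1 CPM under water and 36.9, 41.0 and 25.3 under sorafenib. All sorafenib libraries of day 28 were above all water libraries of that day. This gave a log2 fold change of 0.56 ± 0.42 (SE) at day 14 and 0.93 ± 0.25 at day 28, or 1.91-fold higher (95% interval 0.36 to 1.496). The day 14 value was 1.17 without water replicate 2, 0.22 without water replicate 7 and 0.25 without sorafenib replicate 5 of that day. The day 28 difference had an unadjusted p of 0.0043 and did not pass after adjustment (edgeR adjusted p = 0.194, DESeq2 adjusted p = 0.0570). Without the shallow library it was 0.80 (edgeR adjusted p = 0.267). Over both days the log2 fold change was 0.72 ± 0.27 (SE; edgeR adjusted p = 0.121, DESeq2 adjusted p = 0.0558). It passed only without water day 14 replicate 2, which had the highest Hmox1 of its group (edgeR adjusted p = 0.0364), and it was 0.37 with the 3 libraries of highest Rn45s share left out (edgeR adjusted p = 0.671).

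Macrophages that clear red cells are rich in Hmox1, so their markers are given beside it. All 10 macrophage markers were lower with sorafenib over both days, with a median log2 fold change of -0.78, and 3 passed the edgeR test (Adgre1, C1qb and C1qa; 2.41% of all genes were called lower). At day 14 they summed to 209 to 412 CPM in water libraries and 112 to 268 in sorafenib libraries. Their day 28 sums were 288 to 460 CPM in water libraries and 130.1 to 396 in sorafenib libraries. No marker was at 0 in any group. Sorafenib day 28 replicate 2 had 36.9 CPM of Hmox1 beside 130.1 CPM of the markers, and replicate 3 had 41.0 CPM beside 396. The part of macrophage number in the Hmox1 levels was not tested.

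**Figure D4:**
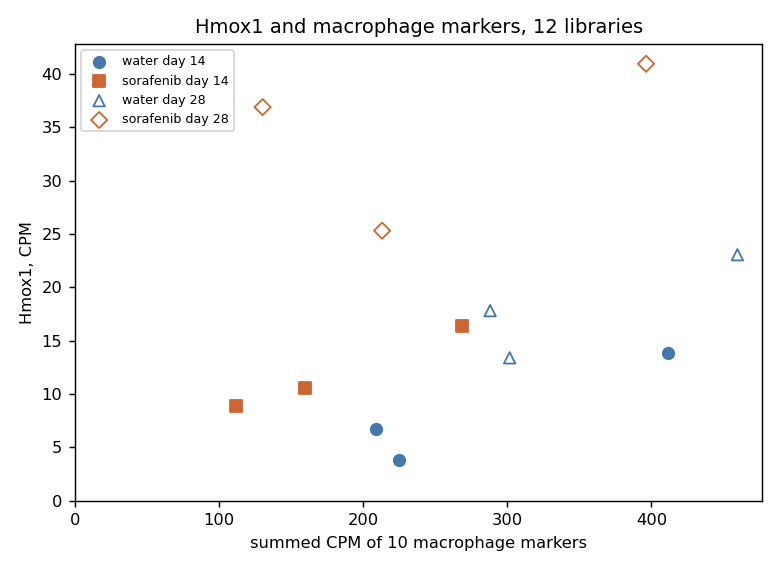
Hmox1 (CPM, vertical axis) against the summed CPM of 10 macrophage markers (horizontal axis) in the 12 libraries, with symbols for the 4 groups. The 3 sorafenib libraries of day 28 have the highest Hmox1, at marker sums from 130.1 to 396 CPM.

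Sod2, manganese superoxide dismutase, turns superoxide into hydrogen peroxide in the mitochondrial matrix (chr1:47638318-47645163, minus strand). Its day 14 levels were 530.0, 432 and 499 CPM under water and 225, 509.8 and 456 under sorafenib. On day 28 they were 418, 506 and 587 CPM under water and 299.6, 196 and 410.3 under sorafenib. In the treated group of day 14, 1 library was far below the other 2, and at day 28 all treated libraries lay below the water libraries, the nearest pair only narrowly. The log2 fold change was -0.29 ± 0.27 (SE) at day 14, -0.70 ± 0.25 at day 28 (edgeR adjusted p = 0.279) and -0.51 ± 0.21 over both days (edgeR adjusted p = 0.152, 95% interval -0.96 to -0.07). Without sorafenib day 14 replicate 5, the low library, the day 14 value was -0.01, and without sorafenib day 14 replicate 6 it was -0.51. Without the shallow library the day 28 value was -0.49. As with Gpx4, the 3 lowest levels of the 12 were in the 3 libraries with the highest Rn45s share. With those 3 left out together the average was -0.15 (edgeR adjusted p = 0.641). Whether anything that raised the Rn45s share had a part in the lower Sod2 levels was not tested. Nor was the part of the cell mix, given the low cardiomyocyte marker sums of sorafenib day 14 replicate 5 and day 28 replicate 3.

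Set side by side, no gene had groups that did not overlap at day 14 (background 21.1% of genes). At day 28, 1 of 9 genes was without overlap and higher with sorafenib (Hmox1, background 10.1%), and 3 of 9 were without overlap and lower (Gpx3, Srxn1 and Sod2, background 11.9%). No gene was without overlap in the same direction at both days (background 5.8%).

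Whether the sorafenib effect differed between day 28 and day 14 was tested as an interaction in the fit of all 12 libraries. edgeR called 0 of 10 genes (background 0% of 18174), 1 of 10 had an unadjusted p below 0.05 (background 4.42%), and DESeq2 called 0 of 10 (background 0.0495%). That gene was Srxn1, whose effect was lower at day 28 by -0.80 ± 0.32 on the log2 scale (SE; unadjusted p = 0.0256, edgeR adjusted p = 0.999). For Hmox1 the difference between the days was 0.34 ± 0.53 (95% interval -0.80 to 1.48), and for Sod2 -0.43 ± 0.41 (95% interval -1.32 to 0.46). Leaving out 1 library moved the latter from -0.20, without the shallow library, to -0.72, without sorafenib day 28 replicate 4. So a larger effect at the later day was not shown for any of the 10 genes, and these intervals are wide.

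In rats given only water, Srxn1 rose 4.72-fold from day 14 to day 28 and was the only gene of the 10 to pass the test. Its mean went from 12.6 ± 3.34 to 59.6 ± 13.2 CPM (SD, n = 3 each), a log2 fold change of 2.24 ± 0.23 (SE; edgeR adjusted p = 0.00022, 95% interval 1.75 to 2.73). By p it ranked 8 of 18174 genes. It passed in 18 of 18 alternatives tried, at log2 fold changes from 2.04 to 2.44. The sorafenib libraries of day 28 were also above those of day 14, at 31.9 ± 9.04 against 12.3 ± 0.709 CPM (SD, n = 3 each), a contrast given as values only. edgeR called 1 of 10 genes (background 8.51%; 5.8% for genes that rose), and 6 of 10 had an unadjusted p below 0.05 (background 24.5%). The other 5 were Gclc, Txnrd1, Nqo1 and Hmox1, at log2 fold changes of 0.61 ± 0.18, 0.54 ± 0.18, 0.59 ± 0.25 and 1.15 ± 0.37, and Slc7a11 at -1.43 ± 0.59 (SE; edgeR adjusted p from 0.0525 for Gclc to 0.164 for Nqo1). DESeq2 called 4 of 9, Srxn1, Txnrd1, Gclc and Hmox1 (background 13.9%). Hmox1 passed edgeR without water day 14 replicate 2 (adjusted p = 0.0174), and Gclc passed without sorafenib day 14 replicate 5, sorafenib day 28 replicate 3 or sorafenib day 28 replicate 4 (smallest adjusted p = 0.0397).

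Water libraries of both days did not overlap for Gclc, Nqo1, Txnrd1 and Srxn1, which were higher at day 28 (4 of 10, background 17.7%), nor for Slc7a11, which was lower (1 of 10, background 16.1%). Gpx4, Gpx3, Gclm and Sod2 were at log2 fold changes of 0.10, 0.21, 0.15 and 0.05 in this contrast, with overlapping groups. Without water day 28 replicate 4 the value of Nqo1 was 0.30. Libraries of the 2 days were counted into separate tables, so the day of collection and anything else that differed between these sets of libraries cannot be told apart. Marker genes moved in the same contrast: 4 of 6 mesothelial markers fell, and 3 of 8 smooth muscle and pericyte markers and 2 of 8 cardiomyocyte markers rose (edgeR). Of all genes tested, 2.7% fell and 5.8% rose. The adipocyte marker Fabp4 (1 of 2 tested) and the red blood cell marker Hba-a2 (1 of 8) rose as well, at log2 fold changes of 1.32 ± 0.17 and 1.80 ± 0.30 (SE). The red blood cell list had a median of only 0.08, with 6 of 8 markers higher and 2 lower. The part of these cell types in the Srxn1 rise was not tested.

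Of 154 further genes in 8 lists of the wider pathway, edgeR called 2 as higher (1.3%) and 9 as lower (5.84%) with sorafenib over both days, against 2% and 2.41% of all genes tested. Of 10 genes for NRF2 and its regulators, 6 were higher and none passed, Nfe2l2 itself standing at a log2 fold change of 0.15 ± 0.09 (SE), and the smallest p was that of the autophagy receptor Sqstm1 (0.50 ± 0.18, edgeR adjusted p = 0.115). Of 26 further NRF2 target genes tested, 15 were higher and 1 passed, the glutathione transferase Gstm1 at 0.56 ± 0.15 (edgeR adjusted p = 0.0458). The median of these targets was 0.19, against -0.01 for all genes. Of 20 genes for cystine supply and glutathione turnover none passed, and the smallest p was that of the neutral amino acid carrier Slc1a4 (-0.60 ± 0.18, edgeR adjusted p = 0.0740). Of 23 other peroxidases, thioredoxins and peroxiredoxins, 2 fell: Gpx1, the main intracellular glutathione peroxidase, at -0.81 ± 0.19, and the sestrin Sesn3 at -0.48 ± 0.10. Gpx1 stood, like Gpx4 and Sod2, lowest in the 3 libraries of highest Rn45s share, at 105.9, 138 and 139 CPM. Exons of Sesn3 overlap an uncharacterized gene on the opposite strand.

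Among 25 other genes of ferroptosis tested, 22 were lower with sorafenib, with a median log2 fold change of -0.31, and 4 fell past the threshold. These were both NADPH oxidases of the list, Nox4 (-1.77 ± 0.23, edgeR adjusted p = 0.00632) and the phagocyte subunit Cybb (-1.14 ± 0.27), the lipoxygenase Alox5 (-0.92 ± 0.23) and the fatty acid desaturase Fads2 (-0.61 ± 0.12). Cybb and Alox5 are genes of myeloid cells, whose macrophage markers were lower as given above, and the part of cell number was not tested. Of 15 genes for iron and haem handling 12 were lower and none passed, the smallest p being that of the transferrin receptor Tfrc (-1.13 ± 0.31, edgeR adjusted p = 0.0548). Of 19 genes for selenoprotein synthesis and other selenoproteins, 1 fell, Selenon, a selenoprotein of the endoplasmic reticulum, at -0.53 ± 0.10. ATF4 is the transcription factor of the amino acid response and also drives Slc7a11. Of 18 genes for ATF4 and its targets, the stress protein gene Nupr1 rose (1.88 ± 0.36), while Atf3 (-1.26 ± 0.25) and the lipoprotein receptor Vldlr (-0.59 ± 0.16) fell. Of these 11 called genes only Nox4 passed without sorafenib day 28 replicate 2 (edgeR adjusted p of the other 10 from 0.0556 to 0.149) or without the 3 libraries of highest Rn45s share. Without water day 14 replicate 3, 9 of the 11 were lost, with sorafenib day 28 replicate 4 left out 0 were lost, and with each other library left out 1 to 6 were lost.

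**Figure D5:**
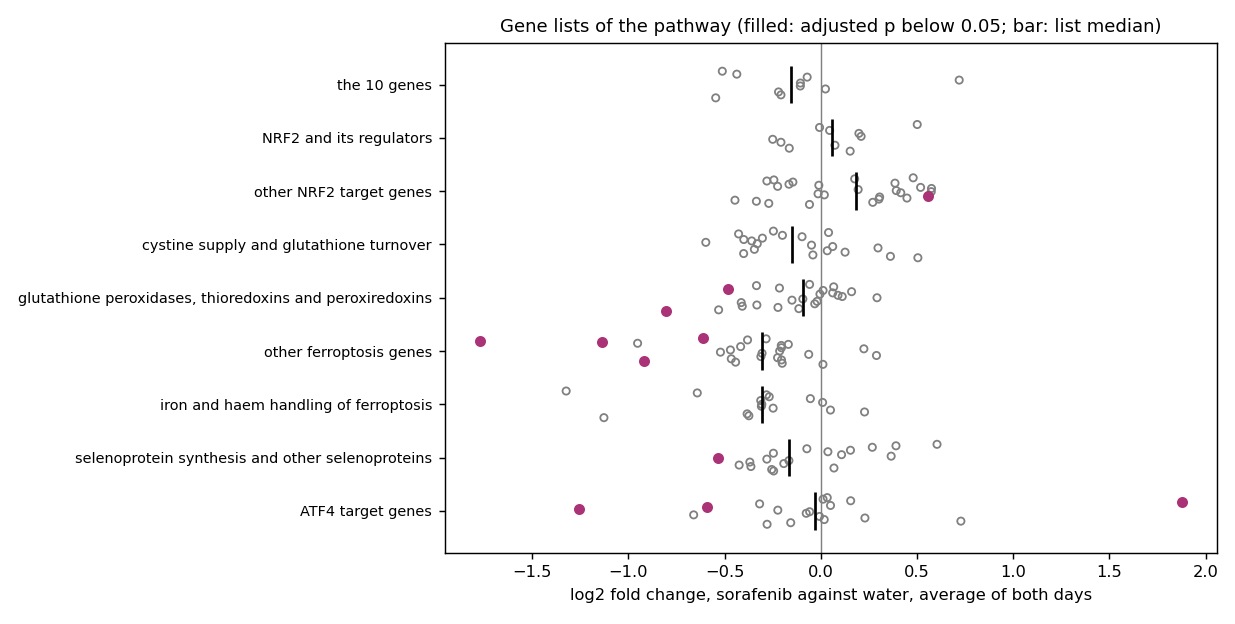
log2 fold change of sorafenib against water, averaged over both days, for the 10 genes and 8 lists of the pathway; each point is a gene, filled points have an edgeR adjusted p below 0.05, and bars are list medians. The list of other ferroptosis genes has its median at -0.31 and 4 filled points, and the 10 genes have none.

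The genes of these lists named for the water groups were chosen after their values were seen. Among all genes, 5.8% rose and 2.7% fell between the water groups. From day 14 to day 28, 5 of 26 NRF2 target genes rose (Cbr1, Mgst1, Gstp1, Blvrb and Gstm1) and 0 fell, with a list median of 0.51 against -0.04 for all genes. Maff, a small partner protein of NRF2, rose by 1.26 ± 0.28 and Sqstm1 by 1.04 ± 0.26 on the log2 scale (SE), among 10 genes for NRF2 and its regulators, while Nfe2l2 itself stood at -0.21 ± 0.13. Slc3a2, the partner of Slc7a11 in xCT, rose by 1.10 ± 0.32 (edgeR adjusted p = 0.0493), 1 of 20 genes for cystine supply and glutathione turnover. Of 23 peroxidase and thioredoxin genes 4 rose, the dismutases Sod1 (1.62 ± 0.25) and Sod3 (1.058 ± 0.21) with Prdx5 and Txnrd2. Exons of Sod1, Prdx5 and Txnrd2 overlap those of other genes. Among iron genes the ferritin light chain Ftl1 rose by 1.058 ± 0.19 and Tfrc fell by 1.504 on the log2 scale, as its water libraries went from 70.3, 278 and 345 CPM to 56.6, 115 and 72.2. Of the other ferroptosis genes Hspb1, Por and Coq2 rose and Nox4 fell, and among selenoproteins Selenom rose. Of 18 genes for ATF4 and its targets 7 rose (Cebpb, Mthfd2, Ddit4, Atf4, Atf3, Slc7a5 and Ddit3). Exons of Ddit3 also overlap those of other genes. With a water library left out, 4 to 15 of these 26 calls were lost, most without day 14 replicate 3, and with a sorafenib library left out 1 to 5.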

How the data were processed

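Heart RNA was depleted of ribosomal RNA and sequenced as paired reads (labels' protocols). The deposited tables hold counts of reads per gene that the authors made with featureCounts 2.0.1 in paired mode without a strand setting on a RefSeq annotation of mRatBN7.2, per the file headers. STAR is named with no version, per the submitters' processing notes. The kit keeps strand, per the labels' protocols, but counting ignored it. In the table of day 14, 2 count columns matched no sample and were not used here.

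The tests used edgeR 4.0.16 under R 4.3.3 (filterByExpr, TMM, robust quasi-likelihood test, Benjamini-Hochberg adjustment, threshold 0.05). Each day had its own fit of 6 libraries; the average of both days, the difference between days and the water groups came from a fit of all 12. Each SE was obtained from the fold change and its F statistic. CPM use TMM library sizes. No replicate pair agreed within sampling noise (smallest chi-square per gene 8.075). Same-numbered libraries of day 28 deviated together with correlations of 0.115, 0.00238 and 0.163. Libraries of unlike number had correlations from -0.161 to 0.0504. These few values cannot decide on a pairing, and the numbers were not taken as pairs. The code was tested on simulated counts.

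The 10 genes and all lists were chosen with earlier results of these data known. All 10 genes are named in every comparison; of each list, up to 6 genes past the threshold in the average of both days, and otherwise the gene of smallest p. The alternatives tried were a test with DESeq2 1.42.0, RLE in place of TMM, dropping the filter or asking for 1 CPM in 3 libraries, dispersion without the robust option, the days taken from the fit of 12, a replicate block, and leaving out each library in turn. Leaving out 3 libraries of high Rn45s share was added after the levels were seen. A motif match is a match of letters in RefSeq promoters of GRCr8.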

Additional observations from a re-analysis of the deposited data

Results flagged for a closer look

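The sorafenib estimates of Gpx3 had opposite signs at the days, 0.08 ± 0.19 at day 14 and -0.47 ± 0.22 at day 28 on the log2 scale (SE). The day 14 estimate was small against its SE, and it ran from -0.092 to 0.26 with 1 library left out. All 3 sorafenib libraries of day 14 lay above the mean of the water libraries of that day on the log2 scale, and all 3 of day 28 lay below theirs. The day 14 distances were 0.21, 0.044 and 0.050, beside 0.045 for water day 14 replicate 3. The sorafenib effect at day 28 minus that at day 14 was -0.59 ± 0.31 on the log2 scale (SE; unadjusted p = 0.0816, edgeR adjusted p = 0.999), so the difference did not pass its test. It was -0.33 without water day 28 replicate 4 and -0.40 without water day 14 replicate 7. The levels were 197, 176 and 176 CPM with sorafenib against 216, 176 and 130.1 with water at day 14, and 113, 153 and 159 against 174, 164 and 268 at day 28.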

How the results depend on the processing

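Of 783 refits of the 10 genes, 736 kept their direction and side of the threshold, 9 came to pass it, 0 ceased to pass and 38 changed sign. The rise of Srxn1 in water passed in all 18 of its alternatives, at 2.04 to 2.44. For sorafenib only Hmox1 ever passed, in the average of both days without water day 14 replicate 2. Counts over all genes moved most. DESeq2 called 438 genes at day 14 and 279 at day 28 against 0 for edgeR, 1836 against 801 in the average, 9 against 0 for the difference between days and 2332 against 1546 in water, with 4 of the 10 genes against 1. Without a filter 87 genes passed at day 14 and 82 at day 28, and in the fit of all groups 4 and 53. With the stricter filter 2 of the 10 genes passed in water. With the 3 libraries of highest Rn45s share left out, 137 genes passed in the average, and Gpx4 (0.042), Gclm (0.041), Nqo1 (0.11) and Txnrd1 (0.10) changed sign. The cause of these moves was not tested.

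Whether the replicate numbers pair the libraries was not settled, and day 14 shares only number 7. With a replicate block 108 genes passed at day 28, 38 in the average and 1024 in water, and no further gene of the 10. Under this block Gclc turned to -0.13 in the average, the difference between days of Hmox1 to -0.59, and in water Gpx4 to -0.079, Gpx3 to -0.15 and Sod2 to -0.10.

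Leaving out 1 library gave 0 to 27 genes at day 14, 0 to 3 at day 28, 35 to 1562 in the average, 0 to 1 for the difference and 558 to 1812 in water, with 0 to 1 of the 10 genes in the average and 1 to 2 in water. Where the sign changed, log2 fold changes ran at day 14 from -0.36 to 0.16 for Gpx4, -0.092 to 0.26 for Gpx3, -0.13 to 0.11 for Gclc, -0.031 to 0.12 for Gclm and -0.21 to 0.17 for Srxn1. At day 28 they ran from -0.058 to 0.20 for Gclc, -0.50 to 0.051 for Nqo1 and -0.090 to 0.14 for Txnrd1. In the average they ran from -0.067 to 0.10 for Gclc, -0.25 to 0.042 for Nqo1 and -0.16 to 0.0078 for Txnrd1. For the difference between days they ran from -0.14 to 0.74 for Slc7a11, -0.45 to 0.049 for Gpx4, -0.11 to 0.21 for Gclc and -0.27 to 0.69 for Hmox1. In water they ran from -0.012 to 0.19 for Gpx4, -0.041 to 0.39 for Gpx3 and -0.074 to 0.17 for Sod2. Depth limits Slc7a11 throughout and all 10 genes in sorafenib day 28 replicate 3.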

Other observations

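Taken gene by gene against the mean of the water libraries of its day, the 9 genes other than Slc7a11 had a median log2 difference of -0.06, 0.09 and -0.05 in sorafenib day 14 replicates 5, 6 and 7. It was -0.28, -0.55 and 0.03 in sorafenib day 28 replicates 2, 3 and 4, where the median of all genes was -0.02, -0.16 and 0.01. The water libraries themselves ranged from -0.11 to 0.20 at day 14 and from -0.18 to 0.21 at day 28. The low median of day 28 thus stands in replicates 2 and 3, the libraries with the highest shares of Rn45s. Replicate 3 is also the shallow library. Sorafenib day 14 replicate 5, next in Rn45s share, was at -0.06, inside the range of the water libraries of its day.

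Of 62 markers of other cell types tested by edgeR for sorafenib over both days, 6 fell (9.68%, against 2.41% of all genes) and 0 rose. These were 2 of 10 endothelial markers (Kdr and Emcn), 1 of 8 fibroblast markers (Lum), 1 of 8 smooth muscle and pericyte markers (Kcnj8) and 2 of 7 atrial markers (Sln and Dkk3). Of the fibroblast markers, 7 of 8 were lower. The other lists were mixed: 4 of 10 endothelial, 4 of 8 smooth muscle and pericyte and 4 of 7 atrial markers were higher. The list medians were -0.15 (endothelial), -0.22 (fibroblast), 0.07 (smooth muscle and pericyte) and 0.09 (atrial). Sln had no count in the sorafenib libraries of day 28. None passed among 8 cardiomyocyte, 5 lymphocyte, 8 red blood cell, 2 adipocyte and 6 mesothelial markers tested. At an unadjusted p below 0.05 (edgeR), 1 of the cardiomyocyte, 2 of the lymphocyte and 1 of the adipocyte markers were lower. Among all 18174 genes tested, 2404 were lower and 2008 higher at this cutoff. Of the lists with a called marker, 2 smooth muscle and pericyte markers and 1 atrial marker were higher at it. Summed adipocyte markers were at 119 to 132 CPM with water and 162 to 230.4 with sorafenib at day 14, and at 305 to 332 with water and 216 to 263 with sorafenib at day 28. Of these 6 markers, only 1 passed the filter on low counts at day 14 and 2 at day 28. Cidec had no count in the sorafenib libraries of either day, and Adipoq had none in those of day 28.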
